A study of Homo sapiens with 4 samples.

Results

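The 29 genes described here gave more newly made RNA in cells treated to deplete the corepressor KAP1, and they are what remained after genes with the symbols of certain families were set aside. They were chosen by the TT-Seq counts themselves. Of 19901 protein-coding gene rows, 11015 were autosomal, shorter than 1 Mb and had at least 200 counts in every library. Within these, a gene was taken when its mean CPM (counts divided by the library's total over genes and scaled to a common total) with dTAG was at least 1.5 times the DMSO mean and both dTAG libraries lay above both DMSO libraries. That gave 38 genes, of which 9 were set aside because their symbols began like those of immediate early transcription factors, zinc finger, integrin, keratin or related families (CREB5, EGR1, ITGBL1, NRP1, KRT80, KRT86, CCN1, ATF3 and ZNF266). The dTAG against DMSO values below are therefore a description of the choice and carry no test.

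All 4 libraries came from HCT116, a human colon cancer line, in its KAP1_dTAG_CloneD5 derivative, a single clone in which both copies of the KAP1 gene, TRIM28, carry a C-terminal degron and HA tag. The tag was thus present in both groups, which were DMSO for 8 h and dTAG, the ligand that sends the tagged protein to the proteasome, for 8 h, with 2 libraries each and no serum starvation or stimulation. In TT-Seq, cells take up 4-thiouridine (4sU) briefly, here 500 μM for 10 min, and the labelled RNA is purified, so that counts over a whole gene, introns included, follow recent transcription. Between 93105627 and 102314741 counts fell on genes in each library. RNA of TRIM28 itself stood at 61.7 and 73.3 CPM with DMSO and at 52.4 and 46.4 CPM with dTAG. It was called lower by edgeR (log2 -0.37 ± 0.092 SE, adjusted p = 0.019). The degron acts on protein, however, so this level does not check the labels. Of 8 epithelial markers, 6 were measured well enough to be tested and edgeR called none of them (0 of 6, with CDH1 and KRT19 under 0.05 before adjustment and CDH1 called by DESeq2), while of 12 markers of other cell types only COL1A1 had 50 or more counts in every library, with 4.51 to 5.54 CPM, and COL1A2 was at 0 throughout. In bulk samples, fewer transcribing cells and less RNA per cell cannot be told apart.

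KAP1 is best known as the scaffold that zinc finger proteins use to set up silent chromatin over transposable elements, and it also sits at the promoters of many active genes with RNA polymerase II. Genes that answer growth factors, amino acid shortage or other stress are switched by a small set of factors. Among these are AP-1 (FOS and JUN dimers), CREB and ATF proteins, and the C/EBP-ATF pairs such as ATF4 that act in the integrated stress response. Several of the 29 genes are textbook targets of those pathways in epithelial cells, and others encode surface enzymes, annexins and signalling adaptors of epithelia and carcinomas.

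Promoter sequence was not used by the rule, so it is shown first. RefSeq promoter windows on GRCh38.p14, 250 bases before to 50 after a transcription start, were matched by symbol for 24 of the 29 genes, some with several starts, in 46 windows. SLC7A11, ADAMTS16, GPRC5A and GLIPR1 were among the 5 with no entry. The AP-1 site TGANTCA, searched on both strands, lay in a window of 5 of the 24 genes (20.8%), against 6.96% of the 8909 genes past the filters with a window and 9.37% of all 27305 genes with one. Counted by window, which allows for genes with many starts such as ANK2, the shares were 13.0%, 5.14% and 7.71%. In the lines below, capitals mark the AP-1 letters, the sequences run 5′ to 3′ on the gene's own strand, and they are shown because they are all the AP-1 matches of the 24 genes.
F3, chr1:94541943-94542002, minus strand: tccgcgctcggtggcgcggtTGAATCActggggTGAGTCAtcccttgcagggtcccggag
CPA4, chr7:130293093-130293172, plus strand: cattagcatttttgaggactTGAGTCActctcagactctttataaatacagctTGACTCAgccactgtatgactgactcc
UPP1, chr7:48088577-48088623, plus strand: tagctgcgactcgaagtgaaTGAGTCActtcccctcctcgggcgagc
SGMS2, first start, chr4:107824403-107824449, plus strand: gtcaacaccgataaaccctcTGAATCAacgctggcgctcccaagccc
SGMS2, later start, chr4:107824775-107824821, plus strand: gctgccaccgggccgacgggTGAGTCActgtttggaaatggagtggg
ANK2, chr4:113049505-113049551, plus strand: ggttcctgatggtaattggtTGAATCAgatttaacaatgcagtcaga

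F3 and CPA4 each held 2 such sites in 1 window. Those of F3 began 223 and 210 bases before the start, and those of CPA4 began 48 and 15 bases before it. The sites of UPP1, ANK2 and SGMS2 began 107, 128, and 140 or 137 bases before a start. The gene counts are small, and since these windows hold only the promoter, they say nothing of enhancers.

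The C/EBP-ATF composite site TGATGNAA was found in 3 of the 24 genes (12.5%), against 2.77% of the genes past the filters and 4.46% of all genes, or by window 6.52%, 2.01% and 3.62%. The cAMP response element TGACGTCA was found in 2 of 24 (8.33%), against 4.20% and 2.25%. Capitals mark these letters in the lines that follow, and none of these matches overlaps an AP-1 match.
ASNS, C/EBP-ATF, chr7:97872449-97872496, minus strand: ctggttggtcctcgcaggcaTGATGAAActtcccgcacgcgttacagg
SUN3, C/EBP-ATF, chr7:48029098-48029145, minus strand: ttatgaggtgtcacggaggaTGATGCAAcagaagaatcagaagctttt
ANK2, C/EBP-ATF, chr4:112817963-112818010, plus strand: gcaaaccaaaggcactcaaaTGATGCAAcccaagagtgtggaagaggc
MAFF, CRE, chr22:38201920-38201967, plus strand: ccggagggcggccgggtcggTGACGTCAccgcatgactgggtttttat
BACH2, CRE, chr6:90296898-90296945, minus strand: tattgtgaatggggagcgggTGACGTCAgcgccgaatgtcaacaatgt

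The 7 other motifs were searched on both strands unless stated. The CArG box bound by SRF was in none of the 24 (0 of 24, against 1.52% of the genes past the filters). The TEAD letters GGAATG were in 3 (12.5%, against 14.6%), and the NF-kB site was in 5 (20.8%, against 17.7%). The ETS letters CCGGAAG were in 2 (8.33%, against 23.2%) and the E-box CACGTG in 1 (4.17%, against 12.8%). The Sp1 letters GGGCGG were in 18 (75.0%, against 79.1%), and TATAAA on the sense strand was in 3 (12.5%, against 5.11%). No test was made of these shares, and a match is a run of letters, not a shown binding site.

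GLIPR1 and SUN3 were among the genes with the largest ratios. GLIPR1 (ENSG00000139278.9, chr12:75480679-75503853) encodes a secreted-protein family member of the CAP superfamily, and it stood at 2.07 and 2.82 CPM with DMSO and at 5.15 and 4.92 CPM with dTAG. The dTAG mean was 2.06 times the DMSO mean, a log2 fold change in edgeR of 1.12 ± 0.19 (SE, n = 2 per group), on 205 to 527 counts. Its 4 tested CAP relatives had no call in edgeR (0 of 4, with GLIPR2 and CRISPLD2 under 0.05 before adjustment and CRISPLD2 called by DESeq2), and their median log2 fold change was -0.35. SUN3 (ENSG00000164744.12, chr7:47987147-48029119), a testis-type SUN domain protein of the nuclear envelope, was at 4.08 and 3.88 CPM with DMSO and at 6.83 and 8.74 CPM with dTAG (log2 1.04 ± 0.17). In both genes the lowest dTAG library was at least 1.67 times the highest DMSO library, and the 2 dTAG libraries of SUN3 had a ratio of 0.781.

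**Figure D1:**
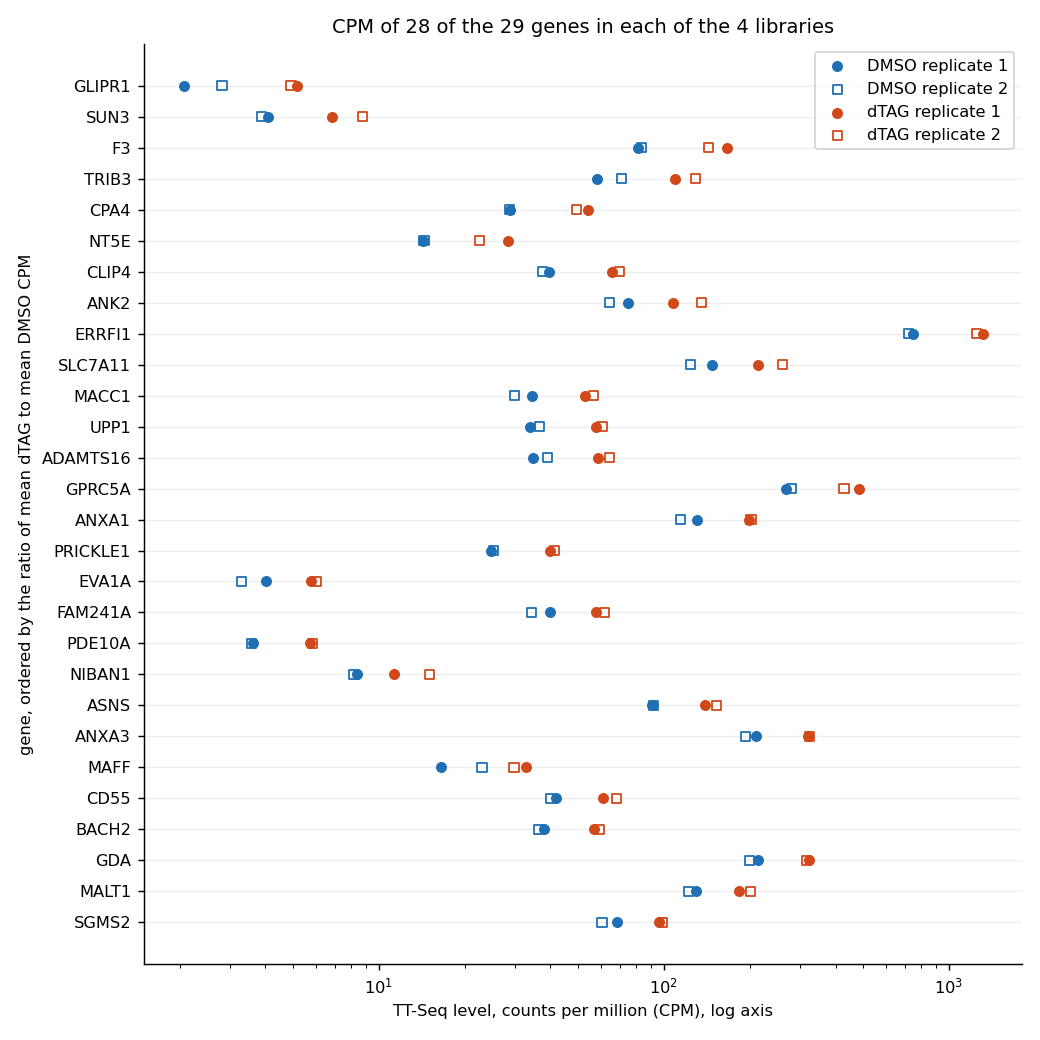
CPM (log axis) of 28 of the 29 genes in the 4 libraries, with filled circles for replicate 1 and open squares for replicate 2, blue for DMSO and orange for dTAG, ordered by the ratio of means. The ratio of means, fixed by the rule, is 2.06 at GLIPR1 and 1.51 at SGMS2, the ends of the order, while levels run from 2.07 CPM for GLIPR1 to 1310 CPM for ERRFI1.

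Across the 29 genes the ratio of means ran from 1.51 to 2.06, and the median log2 fold change was 0.80, against -0.015 over the 12612 genes tested. All 29 genes were called higher by edgeR's quasi-likelihood test at an adjusted p under 0.05, where 3.44% of the tested genes were (434 of 12612) and 3.66% were called lower. Other scalings changed that balance, to 255 higher and 869 lower with upper quartile scaling, 797 and 525 with a spike-in factor as covariate, and 1343 and 941 with a GC and length trend removed. Nothing can be read from the 29 calls, because the rule chose genes on the same libraries. Without dTAG replicate 1, EVA1A and PDE10A were not called (log2 0.80 and 0.79), and without dTAG replicate 2 neither were EVA1A, PDE10A, SUN3 and NIBAN1 (0.72, 0.74, 0.85 and 0.52). Scaled by the totals of the ERCC spike-ins, none of the 29 was called (0 of 29, all 29 under 0.05 before adjustment), at a median of 1.44 for them and 0.63 for all genes. The condition that both dTAG libraries exceed both DMSO libraries was met by 19.7% of the 11015 genes past the filters. Just inside the limit lay SGMS2, MALT1 and GDA, with ratios of 1.507, 1.525 and 1.545. Just outside it lay MAP1LC3B at 1.492, POU5F1B at 1.481 and MICAL2 at 1.477. With the symbols of the set-aside families left out, no gene past the filters exceeded 1.5 times with overlapping libraries (0 genes). By the same count, 11 further genes met every limit but for a lowest count of at least 50 and under 200.

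**Figure D2:**
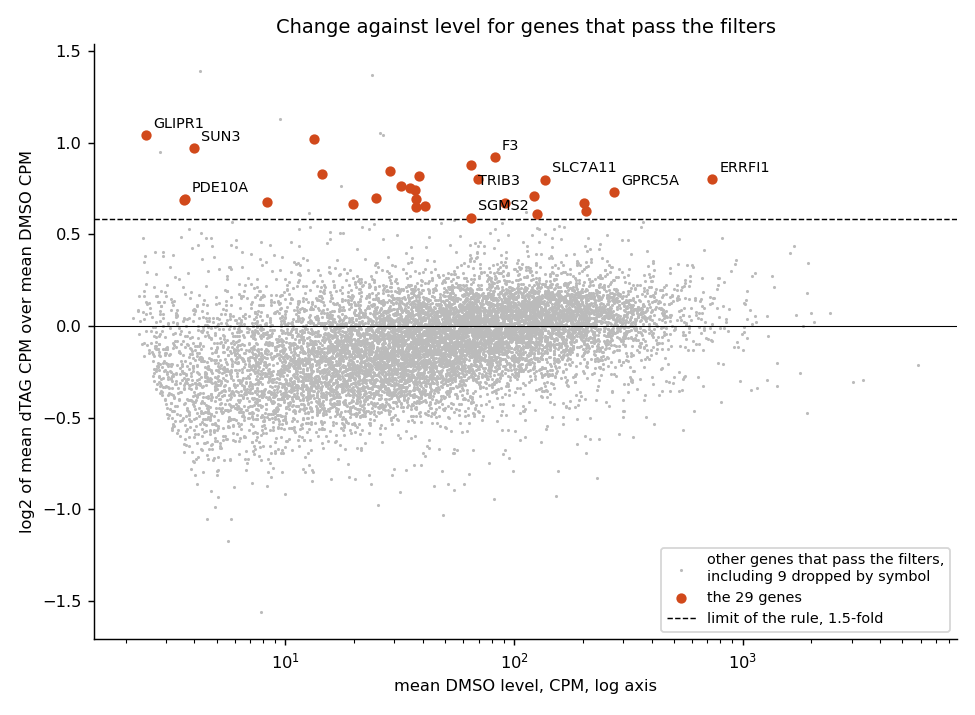
Mean DMSO CPM (log axis) against the log2 ratio of mean dTAG to mean DMSO CPM for the 11015 genes past the filters, with the 29 genes in orange and the limit of 1.5 times as a dashed line. The 29 genes lie above the line by construction, and they spread over the range of levels from GLIPR1 at a mean of 2.45 CPM to ERRFI1 at 734 CPM.

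Genes of amino acid supply and the integrated stress response formed a first group. TRIB3 (ENSG00000101255.10, chr20:362834-397559), a Tribbles pseudokinase induced by ATF4 and CHOP, was at 58.2 and 71.1 CPM with DMSO and at 109 and 129 CPM with dTAG. The DMSO mean was 64.6 ± 9.11 CPM and the dTAG mean 119 ± 14.2 CPM (SD, n = 2), or 0.96 ± 0.098 as a log2 fold change with its SE. SLC7A11 (chr4:138164096-138242349), the cystine importer that feeds glutathione synthesis, was at 148 and 124 CPM with DMSO and at 213 and 261 CPM with dTAG, with a log2 fold change of 0.87. ASNS (chr7:97852117-97872542), asparagine synthetase, whose promoter holds the C/EBP-ATF site printed above 68 bases before the start, was at 91.1 and 92.2 CPM with DMSO and at 139 and 153 CPM with dTAG. NIBAN1 (chr1:184790723-184974550), a stress-inducible protein, was at 8.37 and 8.18 CPM with DMSO and at 11.3 and 15.1 CPM with dTAG. In all 4 of these genes dTAG replicate 2 was the highest library, and the groups did not overlap, as the rule required.

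Other genes of this pathway were listed with earlier results of these data known, so their calls are no independent evidence. Of 10 relatives measured on the list of GADD45, Tribbles and integrated stress response genes, 5 were called higher and 1 lower, beside 3.44% and 3.66% of all tested genes, with a median log2 fold change of 0.26. The median of the list moved with the control libraries, to 0.08 when DMSO replicate 1 was left out and to 0.48 when replicate 2 was. Upper quartile scaling kept 3 of the 5 calls higher and lost those of DDIT3 and CHAC1. SLC1A4, a neutral amino acid transporter, was at 19.5 and 24.0 CPM with DMSO and at 28.8 and 34.2 CPM with dTAG, and rose by 0.61 ± 0.11 on the log2 scale (edgeR adjusted p = 0.0027). SESN2, a sestrin that restrains mTORC1, was at 132 and 157 CPM with DMSO and at 175 and 201 CPM with dTAG, and rose by 0.46 (adjusted p = 0.0061). GADD45B, DDIT3 (CHOP) and CHAC1 (a glutathione-degrading enzyme) rose by 0.61, 0.54 and 0.36, with adjusted p of 0.012, 0.026 and 0.045. TRIB2, a paralog of TRIB3, went the other way, from 17.7 and 22.5 CPM to 15.5 and 12.2 CPM (log2 -0.46, adjusted p = 0.042), and without DMSO replicate 2 it was at -0.31 with no call. The cystine importer's partner SLC3A2, at 270 to 337 CPM, gave a log2 fold change of 0.07 and was not called. Without dTAG replicate 2 the 5 genes called higher had log2 fold changes of 0.30 to 0.62. Most of their calls were lost with either dTAG library left out, as were most calls over all tested genes. Their calls were kept with either DMSO library left out, where more genes were called over all.

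Genes that answer serum and growth factors formed a second group. The study had listed genes induced at least 2-fold by serum in separate RNA-Seq libraries, and this list was not used by the rule. Of the 29 genes, 8 were on it (27.6%), against 203 of the 11015 genes past the filters (1.84%) and 4 of 197 genes lowered by the mirror of the same limits (2.03%). GLIPR1, GPRC5A and CD55 were in the class induced at least 4-fold, MAFF in that induced at least 8-fold, and F3, NT5E, ERRFI1 and PDE10A in the 2-fold class only. The share was counted after families rich in such genes were set aside by symbol, and of the 203 genes 14 were past the limits before that step (6.90%).

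ERRFI1 (ENSG00000116285.12, chr1:8004403-8026308), the feedback inhibitor of the EGF receptor also called MIG6, had the highest level per length of the 29, at 33.5 CPM per kb of gene with DMSO, above 98.8% of the genes past the filters. It was at 749 and 719 CPM with DMSO and at 1310 and 1250 CPM with dTAG, a log2 fold change of 0.87 ± 0.11. F3 (ENSG00000117525.13, chr1:94529224-94541800), tissue factor, which starts the extrinsic coagulation cascade, was at 80.8 and 83.5 CPM with DMSO and at 167 and 143 CPM with dTAG, and its log2 fold change was 0.99 ± 0.089. GPRC5A (chr12:12890781-12917937), a retinoic acid-inducible orphan receptor, was at 269 and 281 CPM with DMSO and at 483 and 428 CPM with dTAG. In these genes both DMSO libraries lay close together and dTAG replicate 1 was the highest library. MAFF (chr22:38200766-38216511), a small MAF partner of CNC factors, had the narrowest gap of the 29, with 16.5 and 23.0 CPM against 32.8 and 29.8 CPM, so that the lower dTAG library was 1.30 times the higher DMSO library. PDE10A (chr6:165327286-165986603), a cyclic nucleotide phosphodiesterase, had the lowest level per length at 0.00546 CPM per kb, on 340 to 587 counts, with 3.62 and 3.58 CPM against 5.74 and 5.86 CPM.

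Most relatives of these genes had no call, like most tested genes, of which 3.44% were called higher and 3.66% lower. A lack of calls is therefore not particular to them, and the same shares stand beside the other counts of relatives. None of the 7 other coagulation genes measured was called in either direction by edgeR or DESeq2 (0 of 7, with PROCR and PROS1 under 0.05 before adjustment), with a median log2 fold change of -0.22, and TFPI, the inhibitor of tissue factor, was at 43.6 and 37.6 CPM with DMSO and at 40.6 and 44.4 CPM with dTAG. None of the 5 genes related to ERRFI1 and GPRC5A was called by either tool (0 of 5), including LRIG1, the only one of them under 0.05 before adjustment and another brake on ERBB receptors, at 6.44 and 6.76 CPM against 4.75 and 4.60 CPM. MAFG and MAFK, the other small MAF genes, had log2 fold changes of 0.05 and 0.03 with no call. It was the rule that set MAFF apart from them, by its limit of 1.5 on the ratio. Of the 8 small MAF and CNC relatives only NFE2L2, which encodes the oxidative stress factor NRF2, was called, from 261 and 269 CPM to 310 and 315 CPM (log2 0.31, adjusted p = 0.042). BACH2 (chr6:89926528-90296908), a CNC repressor known from lymphocytes, was itself among the 29, at 37.9 and 36.2 CPM with DMSO and at 56.8 and 59.3 CPM with dTAG, while its paralog BACH1, at 141 to 163 CPM, was not called (log2 0.22, adjusted p = 0.13).

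Other signalling genes were MACC1, MALT1 and PRICKLE1. MACC1 (chr7:20134654-20217404), a colon cancer gene tied to MET signalling, was at 34.4 and 29.9 CPM with DMSO and at 52.7 and 56.5 CPM with dTAG. MALT1 (chr18:58671385-58754477), the protease of the CARD-BCL10-MALT1 complex that leads to NF-kB, was at 130 and 122 CPM against 184 and 201 CPM, and BCL10 was at 30.0 and 32.4 CPM against 37.0 and 33.8 CPM (log2 0.26, adjusted p = 0.10). PRICKLE1 (chr12:42456756-42590355), a core planar polarity protein, was at 24.8 and 25.2 CPM against 39.7 and 41.3 CPM. Of its 8 measured relatives edgeR called none higher (0 of 8, with CELSR2, CELSR3 and FZD6 under 0.05 before adjustment and FZD6 also called by DESeq2), and CELSR2, an atypical cadherin of the same pathway, fell by 0.45 on the log2 scale (adjusted p = 0.02). With the GC and length trend removed CELSR2 was at -0.22 and was not called. PRICKLE3 had a log2 fold change of -0.04. The 4 libraries of each of these genes fell into 2 groups with no overlap, as the rule required.

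Surface and secreted proteins made up another group. NT5E (ENSG00000135318.11, chr6:85449583-85495791), the ecto-nucleotidase CD73 that makes extracellular adenosine, was at 14.3 and 14.4 CPM with DMSO and at 28.4 and 22.6 CPM with dTAG, a log2 fold change of 0.90 ± 0.12. Its 2 dTAG libraries differed most in favour of replicate 1 of all 29 genes, at a ratio of 1.26. CPA4 (ENSG00000128510.10, chr7:130293133-130324180), a secreted carboxypeptidase with the double AP-1 site printed above, was at 28.9 and 28.7 CPM against 54.1 and 49.5 CPM (log2 0.92 ± 0.094), and none of its 3 measured relatives was called by edgeR or DESeq2 or had an unadjusted p under 0.05 (0 of 3). CD55 (chr1:207321375-207386804), decay-accelerating factor, which protects cells from complement, was at 41.8 and 40.1 CPM against 61.0 and 68.0 CPM. The complement regulators CD46 and CD59 had log2 fold changes of 0.01 and 0.03, with no call. ADAMTS16 (chr5:5140329-5320304), a secreted metalloprotease, was at 34.7 and 39.0 CPM against 58.5 and 64.5 CPM.

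ADORA1, a receptor for the adenosine that NT5E makes, was called lower, from 11.4 and 13.1 CPM to 7.98 and 6.95 CPM (log2 -0.64, adjusted p = 0.0096). It was the only call among 12 relatives on the list of adenosine and pyrimidine salvage genes (1 of 12). ADA (log2 -0.29) and TYMP (-0.45) were also under 0.05 before adjustment. ADORA2B, another adenosine receptor, was at 179 and 217 CPM against 215 and 194 CPM and was not called.

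Annexins, calcium-dependent membrane-binding proteins, gave a pair. ANXA1 (chr9:73151756-73170393) was at 131 and 114 CPM with DMSO and at 198 and 202 CPM with dTAG. ANXA3 (chr4:78551518-78610451) was at 211 and 193 CPM against 320 and 324 CPM, and in both genes the dTAG libraries were within a few percent of each other while DMSO replicate 1 was the higher control. Among the 8 other annexins measured, ANXA2 alone was called, from 570 and 626 CPM to 783 and 724 CPM (log2 0.41, adjusted p = 0.02). The other 7 had log2 fold changes from -0.54 for ANXA9 to 0.18 for ANXA7 with no call, and ANXA6 (-0.21), ANXA7 and ANXA9 were under 0.05 before adjustment. The annexin list was drawn up after the names of the 29 were known.

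Enzymes of nucleotide and lipid metabolism were UPP1, GDA and SGMS2. UPP1 (chr7:48088627-48108733), uridine phosphorylase, was at 33.8 and 36.6 CPM with DMSO and at 57.7 and 60.6 CPM with dTAG. GDA (chr9:72114594-72257193), guanine deaminase, was at 214 and 199 CPM against 322 and 317 CPM. SGMS2 (chr4:107824562-107915047), a sphingomyelin synthase with an AP-1 site at each of 2 starts, was at 68.7 and 60.6 CPM against 95.7 and 99.1 CPM. Its paralog SGMS1, at 383 and 358 CPM with DMSO and 443 and 455 CPM with dTAG, was also called higher (log2 0.35, adjusted p = 0.036). UCK1, UCK2 and HPRT1, which salvage nucleosides and bases, had log2 fold changes of -0.21, 0.17 and 0.29 and no call. HPRT1 alone of these was under 0.05 before adjustment (edgeR adjusted p = 0.07).

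The last genes encode proteins of the cytoskeleton and endomembranes. ANK2 (ENSG00000145362.17, chr4:112818108-113383740), ankyrin-B, which ties membrane proteins to spectrin, was at 75.0 and 64.5 CPM with DMSO and at 108 and 135 CPM with dTAG (log2 0.87 ± 0.11). CLIP4 (ENSG00000115295.19, chr2:29097704-29189643), a CAP-Gly protein related to microtubule linkers, was at 39.4 and 37.6 CPM against 65.5 and 69.9 CPM (log2 0.89 ± 0.091). EVA1A (chr2:75469301-75569722), an endoplasmic reticulum and lysosome protein tied to autophagy, was at 4.02 and 3.29 CPM against 5.78 and 6.04 CPM, on 312 to 591 counts. FAM241A (chr4:112145396-112195256), a small uncharacterised protein, was at 39.7 and 34.4 CPM against 57.6 and 62.0 CPM. The relatives listed for ANK2, CLIP4, SUN3 and NIBAN1 had no call, and none were listed for EVA1A or FAM241A. ANK1 and ANK3 had log2 fold changes of -0.41 and 0.12, CLIP1 to CLIP3 ran from -0.63 to 0.22, SUN1 and SUN2 were at 0.16 and -0.13, and NIBAN2 was at 0.12. Before adjustment ANK1, CLIP1 and CLIP3 were under 0.05, and DESeq2 called none of them.

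**Figure D3:**
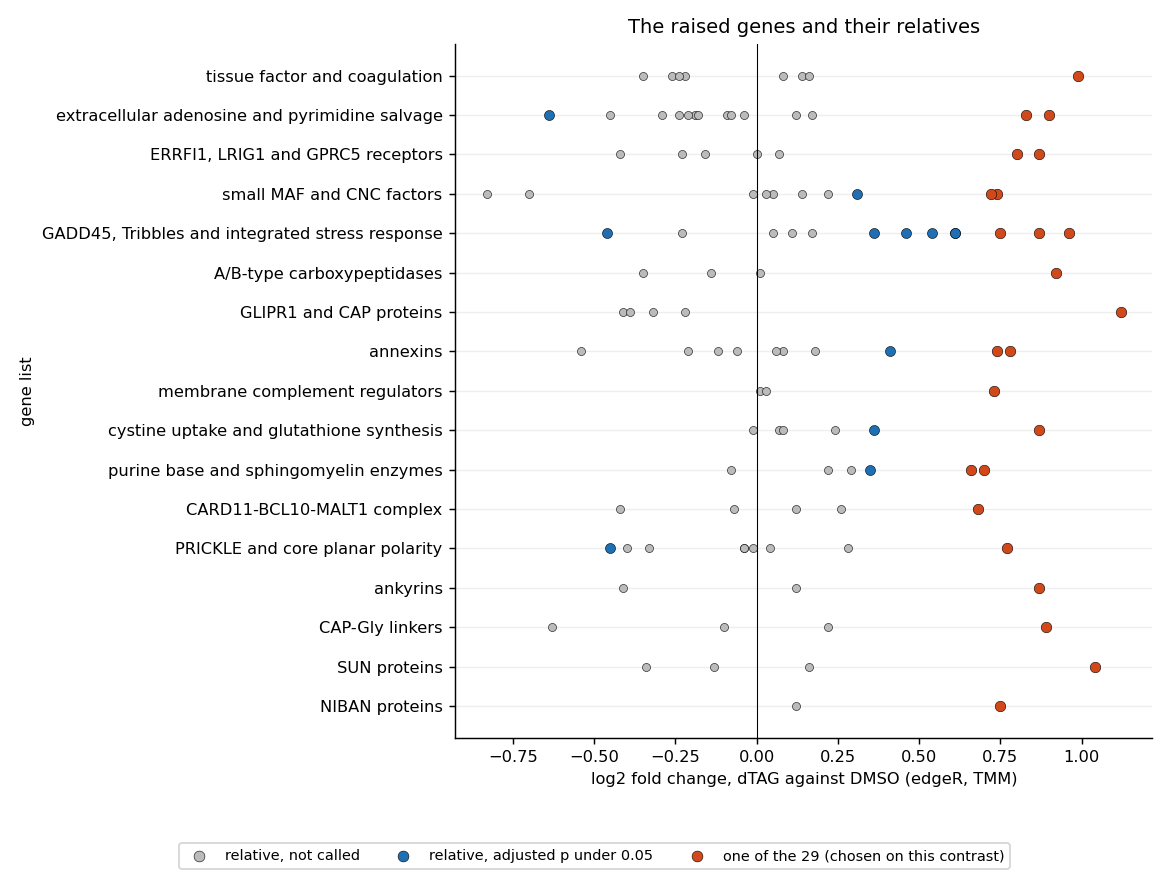
Log2 fold change, dTAG against DMSO, of the tested genes on each list that holds 1 or more of the 29 genes, with the 29 in orange, relatives called at an adjusted p under 0.05 in blue and uncalled relatives in grey. The orange points were placed by the rule, and blue points to the right of 0 are most numerous on the stress response list, with 5 of 10 relatives called higher.

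Over all 23 lists drawn up for families and pathways, 166 genes outside the 29 were tested, of which 21 were called higher (12.7%) and 3 lower (1.81%), beside 3.44% and 3.66% of all tested genes, and their median log2 fold change was 0.02. Upper quartile scaling gave 13 and 10 calls in place of 21 and 3. The lists were drawn up with earlier results of these data known, so these shares are no independent evidence of a direction. Besides the stress response genes, the SRC-type kinases and SH2 adaptors gave 4 calls higher of 20, with BCAR3 from 149 and 166 CPM to 233 and 226 CPM (log2 0.62, adjusted p = 0.00016), FYN at 0.48, SH2D3A at 0.50 and TNS4 at 0.37, and 1 lower, SH2D3C (-1.11, and -0.64 with no call without DMSO replicate 2). LAMB3, a chain of the epithelial laminin-332, rose by 0.56 and its integrin receptor chain ITGA6 by 0.33. Single calls higher included the hyaluronan synthase HAS3 (0.45), CEBPG (0.50), ERG (0.98, on 1.08 to 2.26 CPM), CSRNP1 (0.43), AMOTL2 (0.46), MGLL (0.56) and MICAL2 (0.64). No call was made by edgeR among 13 IL-6 family genes, 8 anoctamins, 8 ABCA transporters, 5 transmembrane mucins or 3 LONRF genes, of which 4, 1, 3, 2 and 1 were under 0.05 before adjustment and DESeq2 called ABCA2 and 1 more. Most of the 21 calls were lost with either dTAG library left out, as were most calls over all tested genes. With either DMSO library left out more genes were called over all, and these calls were kept. Neither is therefore particular to these genes. ADORA1, TRIB2, SH2D3C, CELSR2, ANXA2, SGMS1 and AP1AR were not called with either dTAG library left out, at log2 fold changes of -1.27 to 0.46, and AP1AR also lost its call without DMSO replicate 2 (0.19). On 10 further lists drawn up once the 29 names were known, 2 of 38 genes not yet counted were called higher and 1 lower.

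The order of the replicates within a group was not used by the rule, and it differed among the 29 genes. Of the 8 serum-induced genes, 6 were higher in dTAG replicate 1 than in replicate 2, namely GLIPR1, F3, NT5E, ERRFI1, GPRC5A and MAFF. Of the other 21 genes, 2 were, CPA4 and GDA, and 19 were higher in dTAG replicate 2. With DMSO, 3 of the 8 and 15 of the 21 genes were higher in replicate 1. Outside the 29 genes, of the 195 other serum-induced genes past the filters, 161 (82.6%) were higher in dTAG replicate 1 and 39 in DMSO replicate 1, against 6084 (56.4%) and 4064 (37.7%) of the 10791 remaining genes. Genes of 1 library share its depth and handling, so the counts describe these libraries and no p-value was computed. Over all 29 genes the ratio of dTAG replicate 1 to 2 ran from 0.749 for NIBAN1 to 1.26 for NT5E, and that of DMSO replicate 1 to 2 ran from 0.719 for MAFF to 1.22 for EVA1A.

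**Figure D4:**
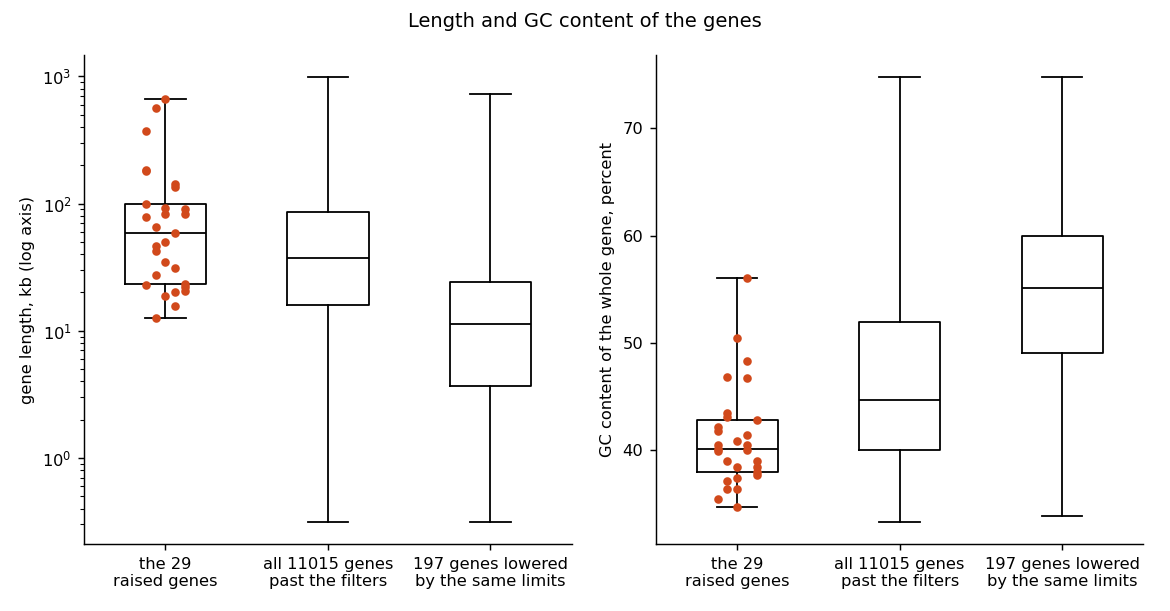
Gene length (left, log axis) and GC content over the whole gene (right) of the 29 raised genes (points), of all 11015 genes past the filters and of 197 genes lowered by the mirror of the same limits, as boxes between the lower and the upper quartile with the median and whiskers to the extremes. The 29 genes have a median length of 58.9 kb and a median GC content of 40.1%, against 37.1 kb and 44.7% for all and 11.2 kb and 55.1% for the lowered genes.

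The 29 genes were mostly AT-rich. Their GC content ran from 34.7% for ANXA1 to 56.1% for MAFF, with a median of 40.1% against 44.7% over the genes past the filters, and 24 of 29 lay below the latter. The 197 lowered genes had a median of 55.1%, with 23 of 197 below. Their lengths ran from 12.6 kb for F3 to 659 kb for PDE10A, with 18 of 29 above the median of the genes past the filters, against 40 of 197 lowered genes. The level with DMSO per kb of gene had a median of 0.714 CPM per kb, below the 1.29 CPM per kb of the genes past the filters, and 11 of 29 lay above that median. After a trend of each library's relative level on GC and length over all tested genes was removed, all 29 kept their calls, with a median log2 fold change of 0.70. The rule chose them on these same libraries, so the kept calls are no support. The GC-rich MAFF and TRIB3 then had 0.96 and 1.05 in place of 0.74 and 0.96, while AT-rich genes had less, with SLC7A11 at 0.67, ANXA1 at 0.63, MALT1 at 0.54 and SGMS2 at 0.51.

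**Figure D5:**
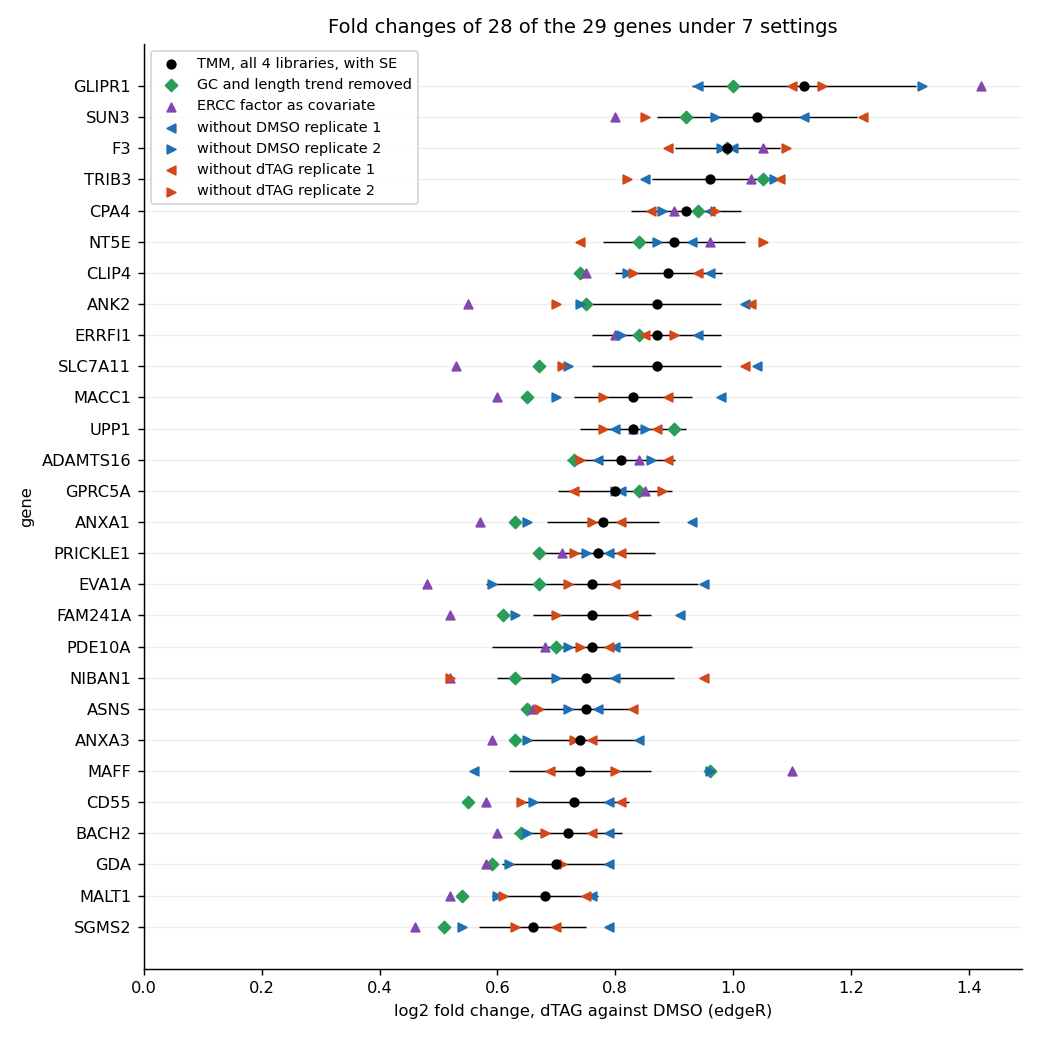
Log2 fold change, dTAG against DMSO, of 28 of the 29 genes with all 4 libraries (black, bars are SE), with the GC and length trend removed, with the spike-in factor as covariate and with each library left out. All points lie above 0, which is no support, since the rule chose the genes on these libraries. With the spike-in factor MAFF moves from 0.74 to 1.10 and GLIPR1 from 1.12 to 1.42, while SLC7A11 moves from 0.87 to 0.53.

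The genes were spread over 12 autosomes, with 5 on chromosome 4 (17.2%, against 3.80% of the genes past the filters) and 5 on chromosome 7 (17.2%, against 4.81%). SUN3 and UPP1 were 59.5 kb apart on chromosome 7, and between them lay only C7orf57, with 4 to 23 counts. FAM241A and ANK2 were 622.9 kb apart on chromosome 4. Of the 5 genes past the filters between these, AP1AR was called higher, from 59.5 and 49.5 CPM to 65.2 and 67.3 CPM (log2 0.35, adjusted p = 0.037), and TIFA, ALPK1, ZGRF1 and LARP7 were not called, with log2 fold changes of 0.00 to 0.20. GDA and ANXA1 were 894.6 kb apart on chromosome 9, with ZFAND5 at a log2 fold change of -0.04 and TMC1 at -0.60 (adjusted p = 0.057) between them.

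Another counted gene overlapped 4 of the 29 genes (13.8%), beside 34.2% of the genes past the filters, a difference that was not tested. The partners lay on the opposite strand, and none of them was called. They included KRR1 with GLIPR1 (log2 0.12), PPHLN1 with PRICKLE1 (0.14) and PLA2G6 with MAFF (-0.12). How the counting treated strand and shared reads is not stated, so values of these 4 genes may include reads of the partner. KRR1 was at 293 to 329 CPM and GLIPR1 at 2.07 to 5.15 CPM. The other 25 genes overlap no counted gene, so leaving all overlapping genes out of the table changed none of their counts. Their calls were all made again in that setting, which says nothing of the 4 genes.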

How the data were processed

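TT-Seq RNA of HCT116 KAP1_dTAG_CloneD5 cells was sequenced in 4 libraries, 2 per group. Per the labels and the study's methods, the authors checked reads with FastQC 0.11.8, used Trim Galore 0.6.4 for trimming, aligned to hg38 and to ERCC spike-in sequences, and took counts across whole protein-coding genes by featureCounts of Subread 1.6.3. The deposited values are raw counts, with no normalization, for 19901 genes and 92 ERCC RNAs. The strand setting is not given in the sources used here. Replicates are labelled as separate samples, each from pooled dishes of 1 clone, and the methods call them biological, so p-values measure the spread between these libraries.

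Symbols were found for 19802 rows, and GC content was read from hg38. CPM used column sums over gene rows. Tests used edgeR 4.0.16 in R 4.3.3 (TMM, at least 50 counts in all 4 libraries, 12612 genes, quasi-likelihood F test, two-sided, 1 term for dTAG, Benjamini-Hochberg adjustment, calls at an adjusted p under 0.05). Each standard error (SE) was obtained as the absolute log2 fold change over the root of the F statistic. The study names spike-in normalization without its settings, so spike-ins served as alternatives (ERCC totals, or 1 factor from 14 ERCC RNAs). Others were DESeq2 1.42.0, upper quartile scaling, a likelihood ratio test, replicate blocks, other count minimums, no overlapping genes, and leaving out each library. Another removed a GC and length trend (lowess, span 0.3), fitted in each library to its log2 level relative to the gene's mean. With 1 library left in a group, that library is assumed to vary like the other group. The scripts were tested on simulated data.

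The 29 genes and the gene lists were chosen with earlier results of these data known. Of the 29 genes, 28 are named and 1 is not reported here. Those named among the 10 with the largest ratios have the fold change with its standard error. Other genes are named when called on a list, when close relatives of one of the 29, when overlapping or lying between them, or when just outside the limit. HCT116 is an established line, and no personal data are involved. The depth of 93105627 to 102314741 counts leaves counting error small except for the low genes, for which counts are given. Promoter windows came from RefSeq. The serum-induced genes are the names of the study's list only.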

Additional observations from a re-analysis of the deposited data

How the results depend on the processing

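With 2 libraries per group, counts of calls moved with nearly every setting. Against 434 genes called higher and 461 lower, DESeq2 gave 680 higher, upper quartile scaling 255 and 869, ERCC totals 0 and 0 (229 genes at an unadjusted p under 0.05), the ERCC factor 797 higher, the likelihood ratio test 729 and 864, the GC and length correction 1343 and 941, and no count minimum 673 and 744. Same-numbered libraries had a correlation of deviations of -0.244, which gives no sign of pairing by number but cannot show whether the libraries were run in pairs. A replicate block gave 162 and 178 calls and kept all 29 genes, and the crossed replicate block, added after the data were seen, gave 1587 and 1603. Leaving out 1 library gave 48 to 2798 genes higher and 21 to 2693 lower.

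Scaling by ERCC totals, at 0.0103 to 0.0265% of counts, raised the median of all genes to 0.63 and that of the 29 to 1.44, and called none of the 29 (0 genes). The median of the 29 was 0.73 with upper quartile scaling, 0.68 with the ERCC factor and 0.70 with the trend removed, and 0.74 to 0.85 with 1 library left out. No log2 fold change of the 29 turned negative under any setting, and of 431 values 395 kept their call and 36 lost it. The rule chose the 29 on these same libraries, so neither the signs nor the kept calls are support. Besides ERCC totals, calls were lost for EVA1A (0.48 with the ERCC factor, 0.80 without dTAG replicate 1, 0.72 without dTAG replicate 2), PDE10A (0.79 and 0.74 without dTAG replicate 1 and 2), and SUN3 (0.85) and NIBAN1 (0.52) without dTAG replicate 2.

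Against 21 related genes called higher and 3 lower, DESeq2 gave 7 lower, upper quartile scaling 13 and 10, ERCC totals 0 and 0 (22 higher at an unadjusted p under 0.05), the ERCC factor 38 and 5, the likelihood ratio test 12 lower, the crossed replicate block 33 and 25, the trend removal 43 and 16, and no count minimum 9 lower. Leaving out 1 library gave 3 to 34 higher and 0 to 36 lower. Under ERCC totals ADORA1 (0.01), TRIB2 (0.20), CELSR2 (0.20) and TRIM28 (0.28) turned positive, uncalled. The ERCC factor left CELSR2 (-0.33), TRIB2 (-0.14), SH2D3C (-0.35) and AP1AR (0.09) uncalled, and the replicate block kept 3 of the 5 stress response calls and left CELSR2, TRIB2, ANXA2, SGMS1 and AP1AR uncalled. Why these counts moved was not tested.

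The rule itself took 44 genes with TMM library sizes, all 29 among them, 6174 with ERCC totals, and 2 at a limit of 2 times, GLIPR1 among them. Leaving out 1 library gave 27 to 42 genes. MAFF was lost without DMSO replicate 1, EVA1A, GDA, MALT1 and SGMS2 without DMSO replicate 2, and CD55, MALT1, NIBAN1 and SGMS2 without dTAG replicate 2.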

Other observations

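A total of 11 genes with a lowest count of at least 50 and under 200 otherwise met the rule. Genes with a lowest count under 50 were not searched. The 11 genes included PI4K2B, TMEM154, ANKRD37, LURAP1L, CALCB, ANO2, RDH12, PYGO1, NPIPB13 and ERG, and they were found after their values were seen. With TMM library sizes in place of column sums, 15 genes joined the 29, among them the amino acid transporters SLC1A4 and SLC7A1, the stress gene GADD45B, the autophagy gene MAP1LC3B and the adaptor BCAR3.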
